A study of Mus musculus with 9 samples.

Results

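This comparison sets CT26 cells that express K262Q Pd-l1 against CT26 cells in which Pd-l1 stayed knocked out. It draws on 6 of the 9 RNA samples of the study, 3 named K262Q and 3 named KO, and on every gene with a mean of at least 1 FPKM over the 9 samples, which was 12212 of the 53796 genes listed. CT26 is a mouse colorectal carcinoma cell line. All 9 samples, the controls included, carry the Pd-l1 knockout, were infected with a retrovirus and were selected with puromycin. KO cells received the control vector, WT cells a vector with wild-type mouse Pd-l1, and K262Q cells a vector with the K262Q mutant. The WT samples entered the fit for their spread, and their values are given beside those of the genes named. Each group is a polyclonal line, so an effect of the mutant protein and any other difference between the lines cannot be told apart. The promoter that drives the vector and the origin of the knockout line are not given in the sources used here. The labels name no cytokine, drug or low-oxygen treatment. Whether the 3 repeats of a line were grown apart is not stated, and p-values here reflect variation among the 9 samples that could be technical alone.

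Pd-l1 is the protein of the gene Cd274. At the cell surface it binds PD-1 on T cells and dampens their activity. Its short cytoplasmic tail begins next to the membrane and contains the lysine that the name K262Q refers to. Glutamine lacks the positive charge of lysine and is widely used as a stand-in for acetylated lysine. Acetylation of the tail has been linked to endocytosis of Pd-l1 and to its entry into the nucleus, where it can bind chromatin. The reference codon that the mutant is named for is printed here with its surroundings, because it is the position at which the K262Q and WT constructs differ by their names. Capitals mark that codon, AAA for lysine, which is coding bases 784 to 786 and lies in a coding exon on the plus strand at chr19:29382580-29382582 (GRCm38, GENCODE release 21). The vector's own sequence was not analysed here.
Cd274: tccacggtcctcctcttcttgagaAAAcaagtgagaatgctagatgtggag

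FPKM are fragment numbers scaled to transcript length and to the depth of the library. The steps between low values implied 19.6 to 20.7 M fragments per library, and a 2000 nt transcript at 1 FPKM corresponded to an estimated 35.1 to 37.2 fragments, a counting SD of 16.4% to 16.9%. Gene models under 200 nt, whose FPKM are unreliable, took 27.5% to 29.0% of the total in KO and 29.5% to 31.1% in K262Q. The total outside them was 482435, 504071 and 482467 FPKM in KO replicates 1, 2 and 3, and 495637, 512962 and 513248 FPKM in K262Q. KO replicate 2 lay nearer to the K262Q samples than the other KO libraries did. Among the 3282 genes whose K262Q and KO samples did not overlap, it was the KO sample closest to K262Q in 1932, against 668 for KO replicate 1 and 682 for KO replicate 3. Counts by gene list are therefore given with and without it. That library was singled out from these same values. Leaving out the KO sample nearest to K262Q widens the contrast, so added calls in that fit are not independent support. A value of 0 in this table need not mean that a gene is silent: Rpl13, a ribosomal protein gene, Cox4i1, a respiratory chain gene, and mitochondrial mt-Co2, mt-Co3 and mt-Atp6, which all cells use, are also listed at 0 in all 9 samples. These levels are averages over many cells, so fewer expressing cells and less RNA per cell cannot be told apart.

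Cd274 itself was measured first, as a check of the labels. It stood at 0.982, 0.357 and 0.791 FPKM in KO replicates 1, 2 and 3 and at 37.6, 41.3 and 40.1 FPKM in K262Q replicates 1, 2 and 3. All 3 K262Q samples were far above all 3 KO samples, and KO was close to 0. The WT samples measured 35.6, 35.4 and 38.0 FPKM. Cd274 (ENSMUSG00000016496, chr19:29367455-29388095) was 24.05-fold higher in K262Q than in KO, a difference of 4.59 ± 0.13 (SE, n = 3 a group) on the log2(FPKM + 1) scale that all differences below use, with adjusted p = 3.14e-06. Values after ± are SE from the limma fit unless another error is named. Folds are from the same scale and understate changes of low genes. K262Q minus WT was 0.12 ± 0.13 for Cd274 (adjusted p = 0.575), and the lowest K262Q sample was below the highest WT sample. By the labels the rescue is on a vector, while the deposited value is listed for the Cd274 gene.

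In K262Q cells 88 genes were higher and 66 lower than in KO, which is 1.26% of the 12212 genes tested (limma, Benjamini-Hochberg adjusted p under 0.05). By direction this is 0.721% higher and 0.540% lower. The median size of the 154 changes was 0.40 on the log2 scale, or 1.32-fold. A size of 1.5-fold or more was reached by 40 of them, 17 higher and 23 lower, and a size of 2-fold or more by 9 higher and 7 lower. In all 154 the 3 K262Q samples did not overlap the 3 KO samples. Over all tested genes, the 3 K262Q samples were above the 3 KO samples in 14.99% and below them in 11.9%. At an unadjusted p under 0.05 there were 2681 genes, 21.95% of those tested. With 3 samples a side, the smallest two-sided p of an exact permutation test is 0.1. Of the 154 genes 8 were gene models under 200 nt, among them the 4 largest rises and the 3 largest falls, and these were not named.

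Most calls lay close to the threshold. Of the 154 genes, 88 had an adjusted p of 0.04 or more and 6 an adjusted p under 0.01, while 139 further genes had one between 0.05 and 0.06. Without KO replicate 2 the count was 1117 genes, 682 higher and 435 lower, or 9.15% of those tested (5.58% higher and 3.56% lower). Leaving out any 1 of the other 8 libraries gave between 13 and 51. The split between directions also depended on scaling: 57.1% of the calls were higher in K262Q as deposited and 43.6% of 234 after upper-quartile scaling. Among 387 calls it was 43.2% when models under 200 nt were left out, a fit that also scaled each library to the same remaining total. The median difference over all tested genes was 0.01 as deposited, -0.02 after upper-quartile scaling and -0.03 without those models. Of the 45 genes chosen for naming, Cd274 and Id1 kept their call whichever single library was left out, Id3 kept it in 7 of 9 such fits, Prrx2 and Twist2 in 6, Cask and Abca1 in 5, and 24 others only without KO replicate 2. In the other 9 alternatives Id1, Id2 and Id3 each kept their call in 7. All 3 lost it in the fit of the KO and K262Q samples alone and in the fit with a replicate block. The direction of each of the 45 genes was the same in every fit run. Counts by gene list are read against the shares of all tested genes above: a list with 1 call is given for the gene called, and nothing is read from its count.

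**Figure D1:**
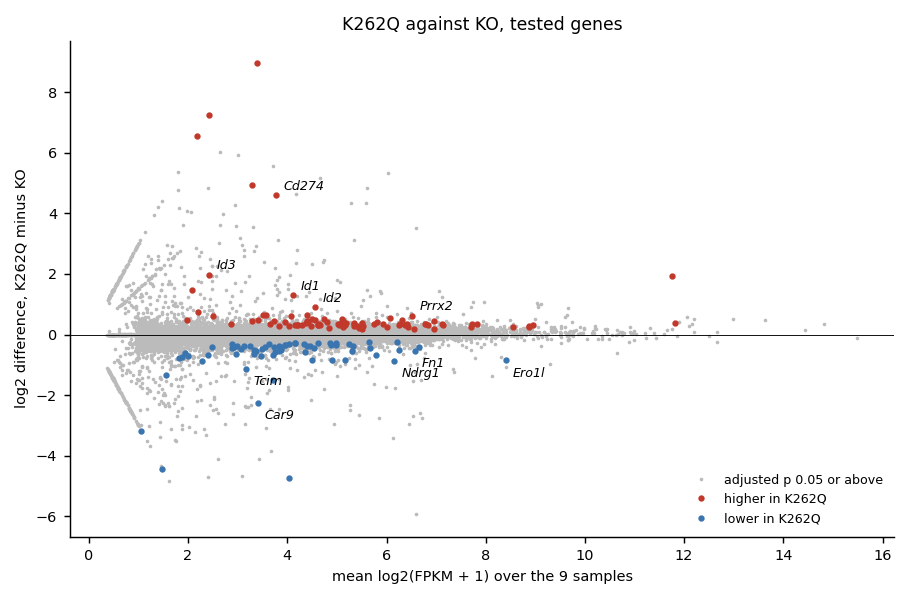
Each point is 1 of the 12212 tested genes, with its mean log2(FPKM + 1) over the 9 samples on the x axis and its log2 difference, K262Q minus KO, on the y axis. Coloured points passed the threshold, 88 higher and 66 lower. Cd274 is at 4.59, the 4 points above it and the 3 lowest coloured points are gene models under 200 nt, and most other coloured points lie within 1 log2 unit of 0.

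By the naming rule the largest rises after Cd274 were Id3, Id1 and Id2. Id proteins are helix-loop-helix proteins without a DNA-binding region. They pair with E proteins such as Tcf3, Tcf4 and Tcf12 and keep them from binding DNA, and they are known in many tissues as targets of BMP signalling and as brakes on differentiation. All 3 tested Id genes rose in K262Q. Id4, listed at 0 in all 9 samples, could not be tested.

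Id1 (ENSMUSG00000042745, chr2:152736251-152737410) measured 12.4, 12.7 and 10.7 FPKM in KO and 26.2, 32.2 and 34.7 FPKM in K262Q. All 3 K262Q samples were well above the KO samples, which lay close together. The rise was 2.46-fold (1.30 ± 0.11, adjusted p = 0.00902). Id2 (chr12:25093799-25097140) measured 17.9, 21.9 and 17.1 FPKM in KO and 33.6, 36.4 and 39.0 FPKM in K262Q, again without overlap, a rise of 1.87-fold (0.91 ± 0.12, adjusted p = 0.0292). Id3 (chr4:136143497-136145755) was low in KO at 3.32, 2.68 and 1.79 FPKM and stood at 9.82, 14.2 and 15.2 FPKM in K262Q, which made it the largest of the 3 rises at 3.92-fold (1.97 ± 0.20, adjusted p = 0.0152). In each of the 3 genes K262Q replicate 1 was the lowest K262Q sample. WT samples were at the KO level: they measured 11.6, 10.98 and 13.0 FPKM for Id1, 14.7, 18.8 and 17.1 for Id2 and 1.93, 2.43 and 2.07 for Id3. K262Q minus WT was 1.31 ± 0.11 for Id1 (adjusted p = 0.00522), 1.07 ± 0.12 for Id2 (adjusted p = 0.0105) and 2.14 ± 0.20 for Id3 (adjusted p = 0.00691). WT against KO called 10 genes (0.0819%) and K262Q against WT called 1145 (9.38%). Among the 9 fits that leave out 1 library, Id2 kept its call only without KO replicate 2 and without WT replicate 1, and Id3 lost it without K262Q replicate 2 and without K262Q replicate 3.

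The partners of the Id proteins did not pass the test. Tcf3 measured 28.6, 31.1 and 27.9 FPKM in KO and 30.7, 29.6 and 30.1 in K262Q (0.04, adjusted p = 0.697). Tcf4 differed by -0.10 and Tcf12 by -0.20, both with overlapping groups. Among 5 tested helix-loop-helix repressors, Twist2, a mesenchymal transcription factor, rose from 50.5, 51.6 and 50.7 FPKM to 66.9, 67.8 and 67.7 FPKM, a change of 1.32-fold with little spread in either group (0.40 ± 0.04, adjusted p = 0.0145). Its relative Twist1 differed by 0.12 ± 0.05 (adjusted p = 0.228). Hes1, Bhlhe40 and Bhlhe41 overlapped between groups. In the list of Id genes and their partners 4 of 11 tested members rose and 0 fell, while 0.721% of all tested genes rose. The counts were the same without KO replicate 2. In the fit of the KO and K262Q samples alone the list had 1 call, Twist2. With the replicate block it had 0.

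BMP and TGF-beta ligands act through paired receptors that phosphorylate SMAD proteins, and the Id genes are textbook targets of the BMP branch. Of 28 tested members of this list 0 rose and 1 fell (2 higher and 7 lower at an unadjusted limma p under 0.05), with a median difference of -0.07 against 0.01 over all tested genes. No ligand, receptor or SMAD passed. Bmp2 was near the filter at 1.03, 1.27 and 0.822 FPKM in KO and 1.46, 1.20 and 1.42 in K262Q, with overlap. Bmpr1a (-0.07), Bmpr2 (-0.06) and Smad5 (0.10) overlapped as well. Smad1, a carrier of the BMP signal, measured 8.91, 8.45 and 8.98 FPKM in KO and 6.66, 7.10 and 7.72 in K262Q, lower without overlap but not past the threshold (-0.26 ± 0.08, adjusted p = 0.112). WT was also low in Smad1, at 7.30 ± 0.696 FPKM (SD, n = 3). Skil, a SMAD co-repressor and feedback target of TGF-beta, fell from 10.03, 9.96 and 10.96 FPKM to 6.49, 7.29 and 7.13 FPKM, 1.42-fold lower (-0.51 ± 0.06, adjusted p = 0.0239). Fst, a secreted activin and BMP binder, measured 16.1, 18.04 and 14.4 FPKM in KO and 23.6, 21.1 and 21.8 in K262Q and missed the threshold (0.43 ± 0.08, adjusted p = 0.0531). In the fit without KO replicate 2 the list had 1 higher and 5 lower calls.

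**Figure D2:**
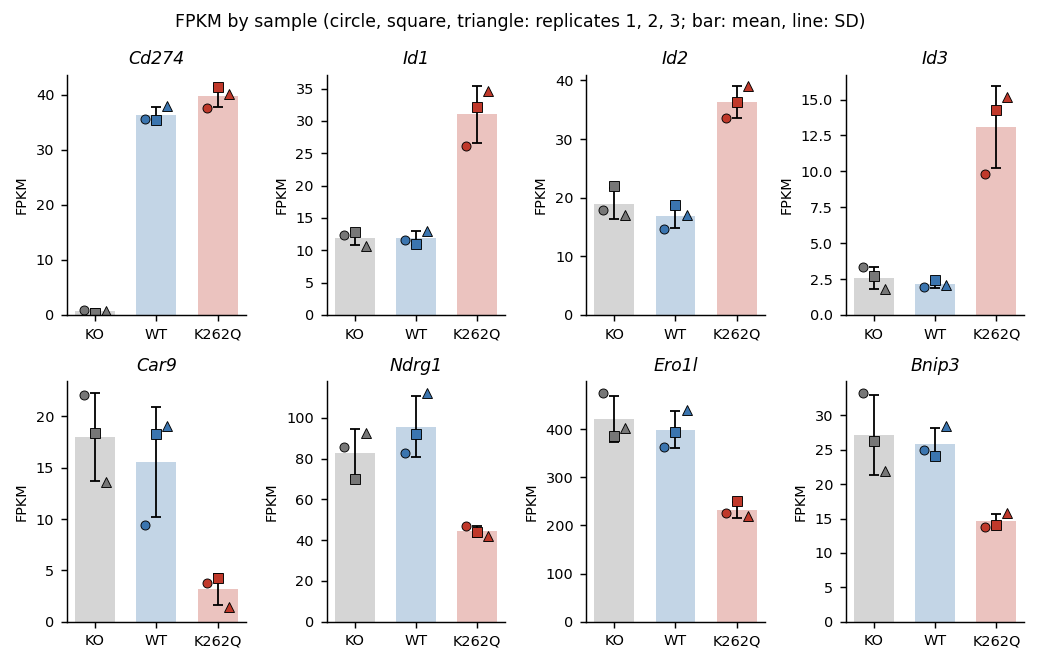
FPKM of Cd274, Id1, Id2, Id3, Car9, Ndrg1, Ero1l and Bnip3 in the 3 KO, 3 WT and 3 K262Q samples, with a circle, square and triangle for replicates 1, 2 and 3, bars for the mean from 0 and lines for the SD. In the Id genes the K262Q samples lie above both other groups, and in Car9, Ndrg1, Ero1l and Bnip3 they lie below them. Cd274 is near 0 in KO and between 35.4 and 41.3 FPKM elsewhere.

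The largest falls included targets of HIF, the transcription factor that cells stabilise when oxygen is low. HIF pairs an alpha subunit, such as the product of Hif1a, with Arnt, and it raises genes of pH control, mitochondrial turnover, growth arrest and angiogenesis. Of 25 tested HIF targets outside glycolysis 4 fell and 0 rose, and 12, or 48.0%, had all 3 K262Q samples below all 3 KO samples, against 0.540% called lower and 11.9% below among all tested genes. The list median was -0.26, against 0.01 over all tested genes. This list, like all lists here, was chosen with earlier results of these data known. Its shares are therefore a description and not independent support. The mRNAs of the subunits did not pass: Hif1a differed by -0.08 (adjusted p = 0.460) and Arnt by -0.05 (adjusted p = 0.772). These RNA values do not give the level or activity of HIF protein, and a cause of the falls was not tested.

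Car9, a membrane carbonic anhydrase that buffers extracellular acid, had the largest fall by the naming rule. It measured 22.1, 18.4 and 13.6 FPKM in KO and 3.82, 4.24 and 1.44 FPKM in K262Q. All K262Q samples were below all KO samples, and both groups were spread widely. The fall was 4.74-fold (-2.24 ± 0.37, adjusted p = 0.0452). Car9 (ENSMUSG00000028463, chr4:43506966-43513729) was 9.39, 18.3 and 19.0 FPKM in WT. Car12, a second such enzyme, measured 2.47, 2.04 and 2.23 FPKM in KO and 1.57, 1.76 and 1.246 in K262Q and did not pass (adjusted p = 0.163).

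Ndrg1, a growth-arrest and differentiation gene (chr15:66929318-66969640), stood at 85.8, 69.8 and 92.8 FPKM in KO and 47.0, 43.9 and 42.0 FPKM in K262Q. The K262Q samples were close together and well below KO, 1.84-fold lower (-0.88 ± 0.13, adjusted p = 0.0392). Ero1l, the oxidase that drives disulfide formation in the endoplasmic reticulum (chr14:45283087-45318771), is the most highly expressed of the 4. It fell from 475, 385 and 402 FPKM to 226, 250.4 and 219.7 FPKM, 1.81-fold lower (-0.85 ± 0.10, adjusted p = 0.0235). Bnip3, a mitochondrial protein that promotes mitophagy (chr7:138890836-138909519), fell from 33.3, 26.3 and 21.8 FPKM to 13.8, 14.1 and 15.9 FPKM, 1.78-fold lower (-0.83 ± 0.14, adjusted p = 0.0489). In Ero1l and Bnip3 KO replicate 1 was the highest KO sample, and in Bnip3 KO replicate 3 was the lowest.

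The 4 genes were not lower in WT than in KO by the test. WT minus KO was -0.23 for Car9, 0.21 for Ndrg1, -0.07 for Ero1l and -0.05 for Bnip3, each with an adjusted p of 0.885 or more. K262Q minus WT was -2.01 for Car9 (adjusted p = 0.0241), -1.08 for Ndrg1 (adjusted p = 0.0160), -0.78 for Ero1l (adjusted p = 0.0160) and -0.78 for Bnip3 (adjusted p = 0.0240). Car9, Ndrg1 and Bnip3 kept the call against KO only in the fit without KO replicate 2 among the 9 fits without 1 library, and Ero1l kept it in 3. When KO replicate 2 was left out, 7 list members were called lower and 0 higher. Leaving out any 1 of the other 8 libraries gave at most 1 lower call in the list.

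Other HIF targets were lower without passing. Vegfa, the main angiogenic growth factor, measured 122, 90.7 and 115 FPKM in KO and 82.2, 77.4 and 74.5 in K262Q (-0.47 ± 0.11, adjusted p = 0.0760). P4ha2, a collagen prolyl hydroxylase, measured 24.5, 26.3 and 20.2 FPKM in KO and 15.6, 16.3 and 16.8 in K262Q (-0.51 ± 0.10, adjusted p = 0.0552). Bnip3l, a relative of Bnip3, measured 19.1, 19.0 and 17.97 FPKM in KO and 13.2, 15.8 and 12.1 in K262Q (-0.43 ± 0.10, adjusted p = 0.0767). In 1 list member, the heme-degrading enzyme Hmox1, all K262Q samples were above KO at 48.0, 50.3 and 49.4 FPKM against 43.6, 43.0 and 38.8 (adjusted p = 0.158). Glycolysis and glucose uptake, often raised by HIF too, had 0 of 18 tested members called in limma (1 higher and 4 lower at an unadjusted p under 0.05) and a median of -0.04; without KO replicate 2 there were 0 higher and 1 lower.

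HIF binds the core letters ACGTG, and the stretches around the matches in 3 of the 4 fallen genes are printed because these genes moved together. The search covered the 250 bases before each RefSeq start (GRCm38.p6) on both strands, as ACGTG or CACGT, and these overlap each other in CACGTG. Capitals mark the matches, and each line is on the strand of its gene. The Car9 stretch is chr4:43506996-43507024, plus strand, with the first capital 18 bases before the start. The Bnip3 stretch is chr7:138909597-138909626, minus strand. The Ero1l stretch, under the RefSeq name Ero1a, is chr14:45318619-45318647, minus strand, 63 bases before the start.
Car9: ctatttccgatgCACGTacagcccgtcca
Bnip3: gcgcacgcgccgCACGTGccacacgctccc
Ero1l: cgcgcgccgctgCACGTccgcaggggagg
By the GENCODE gene bounds given above, the Car9 and Ero1l stretches lie within their genes and the Bnip3 stretch lies before its gene. Ndrg1 is not in the table. Of 20 tested HIF list genes with a window in the table, 13 held a match. Among all 27025 genes with a window 18.5% did, and among all 32851 windows 16.6%. Those shares include genes that were not tested here, so the sets are unlike. The share among tested genes alone was not computed. A match is a description of letters, and binding was not measured.

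Thbs2, Fn1 and Pvr are further falls by the naming rule. Thbs2, a secreted thrombospondin that restrains angiogenesis, fell from 35.8, 29.7 and 38.3 FPKM to 19.3, 18.6 and 18.3 FPKM, 1.80-fold lower (-0.85 ± 0.09, adjusted p = 0.0206), with K262Q samples within 1 FPKM of each other. Fn1, fibronectin, fell from 116, 97.3 and 103 FPKM to 76.6, 68.5 and 72.9 FPKM, 1.44-fold lower (-0.53 ± 0.08, adjusted p = 0.0373). Pvr, the ligand of the T cell receptors TIGIT and CD226, fell from 63.8, 51.7 and 70.4 FPKM to 40.1, 36.7 and 38.5 FPKM, 1.58-fold lower (-0.66 ± 0.11, adjusted p = 0.0431). In Thbs2, Fn1 and Pvr KO replicate 2 was the lowest KO sample. Fn1 and Pvr kept their call, among the 9 fits without 1 library, only without KO replicate 2, and Thbs2 kept it in 3.

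Creb5, a CREB-family transcription factor, measured 5.01, 3.88 and 5.99 FPKM in KO and 2.02, 2.51 and 2.09 FPKM in K262Q, 1.84-fold lower (-0.88 ± 0.14, adjusted p = 0.0431). Tcim, a small protein linked to Wnt signalling, measured 10.7, 7.11 and 13.8 FPKM in KO and 4.20, 4.28 and 3.83 in K262Q, 2.197-fold lower (-1.14 ± 0.19, adjusted p = 0.0452). Gtpbp2, a ribosome rescue factor, measured 42.8, 34.8 and 48.4 FPKM in KO and 25.2, 22.9 and 20.3 in K262Q, 1.80-fold lower (-0.85 ± 0.14, adjusted p = 0.0452). In all 3 the KO samples spread more than the K262Q samples, with KO replicate 2 lowest. Among the 9 fits without 1 library, all 3 kept their call only without KO replicate 2. Cask, a membrane scaffold kinase, had one of the tighter falls, from 15.4, 14.7 and 16.7 FPKM to 9.12, 10.2 and 9.02 FPKM (-0.67 ± 0.07, 1.59-fold, adjusted p = 0.0159). Its WT samples lay between, at 12.7, 12.3 and 11.5 FPKM, and differed from K262Q as well (-0.34, adjusted p = 0.0317).

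The other falls by the naming rule were in genes of low level or of mixed roles. Cp, the copper-carrying ferroxidase ceruloplasmin, fell from 11.3, 12.3 and 13.7 FPKM to 7.61, 6.57 and 7.51 FPKM (-0.71 ± 0.11, adjusted p = 0.0414). Acot1, a cytosolic acyl-CoA thioesterase, fell from 5.67, 5.03 and 5.31 FPKM to 2.84, 2.91 and 3.14 FPKM (-0.68 ± 0.10, adjusted p = 0.0375), and its near-identical paralogs make the level uncertain. Acap1 (1.70-fold), Plekha4 (1.69-fold) and Prune2 (1.63-fold) were under 5 FPKM in every sample. None of these 5 genes overlapped between KO and K262Q. Cp and Plekha4 kept their call, among the 9 fits without 1 library, only without KO replicate 2. Acap1 and Prune2 kept it in 2 and Acot1 in 3.

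Among rises outside the Id genes, the homeobox gene Prrx2, a mesenchymal factor, was one of the steadiest. It measured 78.9, 85.9 and 77.0 FPKM in KO and 116, 126 and 129.9 FPKM in K262Q, 1.53-fold higher (0.62 ± 0.06, adjusted p = 0.0145), and WT was at 70.6, 75.5 and 76.4 FPKM. Dlk2, a Notch-inhibiting membrane protein, rose from 3.47, 2.87 and 2.99 FPKM to 5.21, 6.48 and 5.82 FPKM (0.73 ± 0.13, 1.66-fold, adjusted p = 0.0495). Rab3b, a secretory vesicle GTPase, rose from 9.89, 8.07 and 8.96 FPKM to 14.97, 14.1 and 14.1 FPKM (0.63 ± 0.09, 1.55-fold, adjusted p = 0.0375). Myo10, the myosin of filopodia, rose from 19.4, 17.2 and 19.7 FPKM to 26.4, 26.5 and 29.1 FPKM (0.52 ± 0.08, 1.43-fold, adjusted p = 0.0375). In these 4 genes the K262Q samples stood clear of KO and WT alike.

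Fastkd3, Oma1 and Nsun5 rose by similar amounts. Fastkd3, a mitochondrial RNA regulator, rose from 15.2, 16.1 and 17.5 FPKM to 23.2, 27.9 and 27.6 FPKM (0.65 ± 0.08, 1.57-fold, adjusted p = 0.0285). Oma1, a stress-activated protease of the inner mitochondrial membrane, rose from 3.66, 3.83 and 3.68 FPKM to 7.14, 5.30 and 6.52 FPKM (0.62 ± 0.10, 1.54-fold, adjusted p = 0.0452), with K262Q replicate 2 lowest of its group. Nsun5, an rRNA methyltransferase, rose from 25.9, 30.1 and 28.9 FPKM to 40.4, 39.8 and 42.1 FPKM (0.51 ± 0.07, 1.43-fold, adjusted p = 0.0362). The WT mean lay between those of KO and K262Q in all 3. Apex2, a DNA repair nuclease (0.64 ± 0.08, 1.56-fold, adjusted p = 0.0292), Tprn (0.63 ± 0.11, 1.54-fold, adjusted p = 0.0489) and Slc35a4 (0.53 ± 0.08, 1.45-fold, adjusted p = 0.0373) complete the largest rises apart from Acat2, which is given with the sterol genes. Of all these genes Apex2 and Fastkd3 kept their call in 3 of the 9 fits without 1 library, Oma1 and Nsun5 in 2, and Dlk2, Rab3b, Myo10, Tprn and Slc35a4 only without KO replicate 2.

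**Figure D3:**
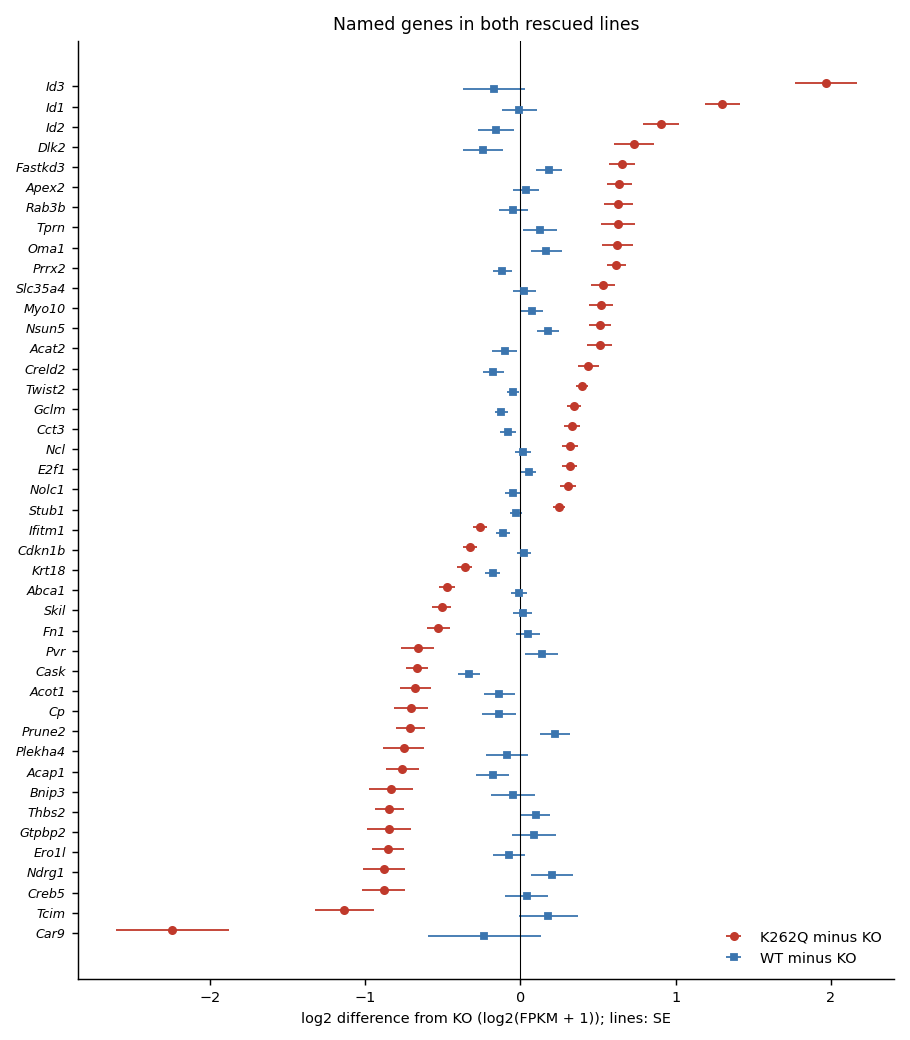
Log2 difference from KO on the log2(FPKM + 1) scale for 43 of the 45 genes chosen for naming, in K262Q and in WT, with lines for the SE. Both differences share the 3 KO samples. Cd274 is left out because of its size. For Id3, Id1 and Id2 the K262Q markers are to the right of 0.9, and for Car9, Tcim and Ndrg1 they are to the left of -0.8.

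The ATF4 programme is switched on when amino acids run short or when other stresses lead to phosphorylation of eIF2alpha, and it feeds amino acid synthesis, transport and, when prolonged, cell death genes. In K262Q most of its genes lay below KO, without a single call. Of 37 tested members 0 rose and 0 fell in limma, while 20 were lower and 0 higher at an unadjusted p under 0.05. All 3 K262Q samples were below all 3 KO samples in 21, or 56.8%, and above in 1, and the median was -0.22. Over all tested genes 11.9% were below in this way and 14.99% above. Without KO replicate 2, 21 of the 37 were called lower and 0 higher. No other fit without 1 library called a member of this list.

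Trib3, Ddit3 and Nupr1 had large differences and wide KO groups. Trib3, a pseudokinase that feeds back on ATF4, measured 136, 70.5 and 183 FPKM in KO and 51.8, 53.3 and 46.0 in K262Q (-1.25, adjusted p = 0.0770). Ddit3, the transcription factor CHOP, measured 121, 55.6 and 160.1 FPKM in KO and 52.9, 52.2 and 48.1 in K262Q (-0.99, adjusted p = 0.148). Nupr1, a stress cofactor, measured 75.7, 43.9 and 79.6 FPKM in KO and 29.7, 31.3 and 31.8 in K262Q (-1.03, adjusted p = 0.0573). In all 3 genes KO replicates 1 and 3 were high and KO replicate 2 was the nearest to the K262Q samples. WT samples were high in each, at 138, 127 and 150.0 FPKM for Trib3, 129, 112 and 143 for Ddit3 and 71.2, 62.1 and 71.0 for Nupr1.

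Chac1, a glutathione-degrading enzyme, measured 61.5, 30.3 and 69.2 FPKM in KO and 23.97, 26.0 and 25.0 in K262Q (-0.99, adjusted p = 0.0966). Ppp1r15a, the phosphatase subunit that reverses eIF2alpha phosphorylation, measured 75.8, 28.7 and 105 FPKM in KO and 27.1, 26.2 and 22.8 in K262Q (-1.24, adjusted p = 0.136). Slc7a11, the cystine transporter, measured 7.84, 6.24 and 9.35 FPKM in KO and 4.57, 4.70 and 4.996 in K262Q (-0.60, adjusted p = 0.0573). KO replicate 2 was again the lowest KO sample in each. Atf4 itself differed by -0.15 (adjusted p = 0.193). The enzymes of amino acid synthesis differed less: their median was -0.10, with 3 of 12 below KO in all samples, against -0.31 and 5 of 7 for transporters.

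A low KO replicate 2 was also seen in stress genes outside that list, 3 of which were picked after their values were seen. Gadd45a, a p53 and ATF4 target, measured 127, 38.0 and 190.2 FPKM in KO and 29.1, 24.3 and 30.5 in K262Q (-1.77, adjusted p = 0.110). Txnip, a thioredoxin inhibitor induced by glucose through MondoA, measured 141, 66.8 and 152 FPKM in KO and 59.3, 51.4 and 59.4 in K262Q (-0.98, adjusted p = 0.109). Egr1, an immediate early transcription factor, measured 43.6, 16.1 and 60.7 FPKM in KO and 18.1, 15.8 and 15.4 in K262Q, and here KO replicate 2 fell within the K262Q range (-1.05, adjusted p = 0.186). Of 24 tested immediate early and AP-1 genes 0 were called in limma (2 higher and 7 lower at an unadjusted p under 0.05), and 8 were called lower and 0 higher without KO replicate 2. The p53 list had 0 of 24 called (10 higher and 3 lower at an unadjusted p under 0.05), and 4 higher and 2 lower calls without that library.

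**Figure D4:**
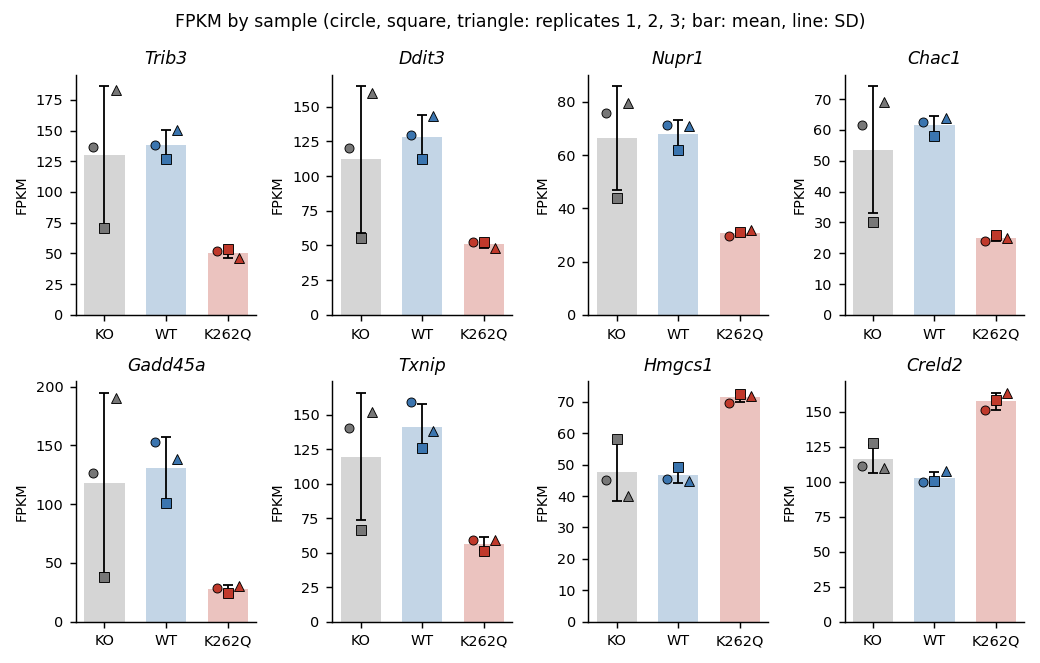
FPKM of Trib3, Ddit3, Nupr1, Chac1, Gadd45a, Txnip, Hmgcs1 and Creld2 in the KO, WT and K262Q samples, with a circle, square and triangle for replicates 1, 2 and 3, bars for the mean from 0 and lines for the SD. In the first 6 genes 1 KO sample, replicate 2, lies close to the K262Q samples while the other KO samples and the WT samples lie higher. In Hmgcs1 and Creld2 the K262Q samples are the highest.

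More chaperone genes lay above KO than below, in the endoplasmic reticulum and in the cytosol. These proteins fold new polypeptides, and the unfolded protein response raises the first kind through Atf6, Xbp1 and Ern1. Of 26 tested genes of the endoplasmic reticulum list 1 rose and 0 fell, and the median was 0.19. All K262Q samples were above KO in 15 (57.7%) and below in 4 (15.4%). Over all tested genes these shares were 14.99% and 11.9%. Creld2, a secreted factor of that response, rose from 112, 127 and 109.8 FPKM to 151, 158 and 163 FPKM, 1.35-fold (0.44 ± 0.07, adjusted p = 0.0392). Hspa5, the central chaperone BiP, measured 1111, 1206 and 1109 FPKM in KO and 1275, 1345 and 1325 in K262Q (0.20 ± 0.05, adjusted p = 0.0670). Manf, another secreted stress factor, measured 354, 400.0 and 345 FPKM in KO and 420.3, 494 and 473 in K262Q (0.33 ± 0.08, adjusted p = 0.0707). Several sensors and regulators lay on the other side: Ern1 measured 22.9, 17.7 and 27.3 FPKM in KO and 14.3, 14.8 and 13.5 in K262Q (-0.62 ± 0.14, adjusted p = 0.0653), and Atf6 and Xbp1 were also lower without overlap (adjusted p = 0.0552 and 0.0805). Without KO replicate 2 the list had 10 higher and 3 lower calls. No other fit without 1 library called a member.

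Of 19 tested heat shock and cytosolic chaperone genes 1 rose and 0 fell, and the median was 0.16. All K262Q samples were above KO in 10 (52.6%) and below in 0, against 14.99% and 11.9% over all tested genes. Cct3, a subunit of the ring-shaped chaperonin that folds actin and tubulin, rose from 203, 228 and 205 FPKM to 268, 261 and 272 FPKM, 1.26-fold (0.33 ± 0.05, adjusted p = 0.0414). Its fellow subunits Cct2 (0.08) and Tcp1 (0.16) did not pass. Hspa8, the constitutive Hsp70, measured 133, 142 and 119 FPKM in KO and 167, 167 and 174 in K262Q (0.37 ± 0.08, adjusted p = 0.0633). The fit without KO replicate 2 called 8 genes higher and 0 lower, and no other fit without 1 library called a member.

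Sterol synthesis had the highest share of members above KO among the lists with at least 8 tested genes. The pathway builds cholesterol from acetyl-CoA by way of mevalonate and squalene, under control of the transcription factor encoded by Srebf2. Of 28 tested members 1 rose and 1 fell, but 19, or 67.9%, had all 3 K262Q samples above all 3 KO samples, the median was 0.25, and 20 were higher and 1 lower at an unadjusted p under 0.05. Over all tested genes 14.99% were above KO in this way. Among the 19 enzymes 15 were above KO in all samples, with a median of 0.33. Acat2, which joins acetyl-CoA units at the first step, rose from 21.3, 26.7 and 22.7 FPKM to 31.9, 34.4 and 35.4 FPKM, 1.42-fold (0.51 ± 0.08, adjusted p = 0.0431). Hmgcs1, the synthase of the next step, measured 44.997, 58.2 and 39.98 FPKM in KO and 69.8, 72.6 and 71.9 in K262Q (0.59 ± 0.12, adjusted p = 0.0597). KO replicate 2 was the highest KO sample in both.

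Hsd17b7 (0.58 ± 0.13, adjusted p = 0.0633), Mvk, mevalonate kinase (0.45 ± 0.08, adjusted p = 0.0541), and Fdft1, squalene synthase (0.40 ± 0.08, adjusted p = 0.0568), had sizes close to these without passing, and were picked once their values were known. The exporter Abca1, which loads cholesterol onto lipoproteins, moved the other way: it fell from 8.72, 8.53 and 8.02 FPKM to 5.78, 5.78 and 5.81 FPKM, 1.39-fold (-0.47 ± 0.05, adjusted p = 0.0206), with very little spread in K262Q. It kept its call in 5 of the 9 fits without 1 library, and Acat2 kept it only without KO replicate 2. That fit called 12 members of the list higher and 1 lower. Leaving out any 1 of the other 8 libraries gave 0 higher and at most 1 lower. In fatty acid synthesis 0 of 16 tested genes were called in limma (7 higher and 1 lower at an unadjusted p under 0.05), with a median of 0.09; without KO replicate 2 there were 3 higher and 1 lower calls.

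Growth genes also lay more often above KO than below. Of 27 tested genes of ribosome biogenesis and the Myc network 2 rose and 0 fell, and the median was 0.19. That median was 0.15 after upper-quartile scaling and 0.14 without models under 200 nt. All K262Q samples were above KO in 16 (59.3%) and below in 2 (7.4%), against 14.99% and 11.9% over all tested genes. The fit without KO replicate 2 called 8 higher and 1 lower, and no other fit without 1 library called a member. Ncl, nucleolin, rose from 451, 486 and 437 FPKM to 551, 575 and 591 FPKM, 1.249-fold (0.32 ± 0.05, adjusted p = 0.0452). Nolc1, a nucleolar scaffold, rose from 127, 142 and 127 FPKM to 162, 165 and 165 FPKM, 1.24-fold (0.31 ± 0.05, adjusted p = 0.0489). Myc itself overlapped between groups, at 90.6, 68.6 and 110.4 FPKM in KO and 74.1, 76.7 and 71.3 in K262Q. Cytosolic ribosomal protein genes, many of which share reads with pseudogenes, had 0 of 33 called (8 higher and 0 lower at an unadjusted p under 0.05), and 2 higher and 0 lower without KO replicate 2. Their median was 0.07 as deposited, 0.04 after upper-quartile scaling and 0.02 without models under 200 nt.

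In DNA replication and E2F targets 1 of 39 tested genes rose and 0 fell, with a median of 0.14. The median was 0.11 after upper-quartile scaling and 0.096 without models under 200 nt. At an unadjusted limma p under 0.05, 16 were higher and 0 lower as deposited, and 9 and 1 without those models. All K262Q samples were above KO in 15 (38.5%) and below in 0, against 14.99% and 11.9% over all tested genes. E2f1, the factor that opens S phase, rose from 22.2, 21.97 and 21.005 FPKM to 27.4, 27.4 and 27.0 FPKM, 1.246-fold with tight groups (0.32 ± 0.05, adjusted p = 0.0375). Of 35 mitotic genes 0 were called (13 higher and 0 lower at an unadjusted p under 0.05), and the median was 0.12. It was 0.08 after upper-quartile scaling and 0.07 without models under 200 nt. Without KO replicate 2 these 2 lists had 11 and 10 genes called higher and 0 lower. Each other fit without 1 library gave at most 1 call in either list. Among the cyclin-dependent kinase inhibitors Cdkn1b, the G1 brake p27, fell from 20.3, 21.3 and 20.3 FPKM to 16.6, 16.6 and 15.6 FPKM, 1.251-fold (-0.32 ± 0.04, adjusted p = 0.0361). Cdkn1a, the p53 target p21, measured 113, 119 and 114 FPKM in KO and 123, 123 and 121 in K262Q (0.09 ± 0.06, adjusted p = 0.410).

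Gclm, the regulatory subunit of the enzyme that makes the glutathione precursor, rose from 196, 206 and 193 FPKM to 246, 257 and 254 FPKM, 1.27-fold (0.34 ± 0.04, adjusted p = 0.0255). It was the 1 call among 25 tested NRF2 targets, whose median was 0.11. Leaving out KO replicate 2 gave 6 higher and 1 lower calls in that list. Slc7a11, also an NRF2 target, was lower in every K262Q sample as given above.

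Of 10 tested checkpoint ligands and receptors Cd274 rose, Pvr fell and 8 did not pass. The fit without KO replicate 2 called 1 higher and 3 lower. Tnfrsf9, the receptor 4-1BB, measured 2.73, 2.88 and 4.20 FPKM in KO and 1.22, 1.22 and 0.958 in K262Q, lower without overlap (adjusted p = 0.0552). Cd80 measured 11.1, 8.46 and 14.3 FPKM in KO and 7.49, 8.60 and 7.68 in K262Q and overlapped (adjusted p = 0.174). Cd47, which signals to phagocytes, measured 49.7, 51.2 and 55.5 FPKM in KO and 44.3, 46.3 and 45.5 in K262Q (-0.20 ± 0.05, adjusted p = 0.0975). Pdcd1lg2, the other PD-1 ligand, was listed at 0 in all 9 samples and could not be tested.

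Of 63 tested interferon-stimulated genes 1 fell and 0 rose, while 21 were lower and 2 higher at an unadjusted limma p under 0.05, with a median of -0.15. Over all tested genes 0.540% fell, 21.95% had an unadjusted p under 0.05 in either direction, and the median was 0.01. Ifitm1, an antiviral membrane protein, fell from 81.9, 80.7 and 76.7 FPKM to 68.5, 66.0 and 64.9 FPKM, 1.20-fold (-0.26 ± 0.05, adjusted p = 0.0489). Its WT samples lay between the groups at 70.6, 75.6 and 75.2 FPKM. In MHC class I presentation 0 of 22 were called (4 higher and 8 lower at an unadjusted p under 0.05), and 3 higher and 2 lower without KO replicate 2. B2m, the light chain, measured 807, 834 and 868 FPKM in KO and 725, 748 and 733 in K262Q (-0.18 ± 0.04, adjusted p = 0.0590), while the heavy chain H2-K1 overlapped. Class I heavy chain genes are close relatives, so their levels are uncertain. Without KO replicate 2, 7 interferon-stimulated genes were called lower and 0 higher, and 3.56% of all tested genes were called lower and 5.58% higher. No other fit without 1 library called an interferon-stimulated gene of the list, Ifitm1 included.

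The machinery that acts on Pd-l1 itself had 1 call among 34 tested genes, and 3 higher and 0 lower when KO replicate 2 was left out. Stub1, a ubiquitin ligase with Pd-l1 among its reported substrates, rose from 81.3, 83.1 and 80.0 FPKM to 97.8, 94.0 and 99.3 FPKM, 1.19-fold (0.25 ± 0.04, adjusted p = 0.0430). The acetyltransferase Ep300 (0.19, adjusted p = 0.248) and the deacetylase Hdac2 (0.19, adjusted p = 0.159) did not pass. The clathrin adaptor gene Hip1r (-0.03) and the carrier gene Kif5b (0.00) overlapped between groups. Kpnb1, the main nuclear import receptor, measured 256, 273 and 276 FPKM in KO and 301, 326 and 314 in K262Q (0.23 ± 0.05, adjusted p = 0.0620).

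Mesenchymal and epithelial genes moved in both directions. Of 15 tested members 2 rose (Twist2 and Prrx2) and 2 fell (Fn1 and Krt18). Leaving out KO replicate 2 gave 2 higher and 4 lower. The list median of 0.02 turned negative after upper-quartile scaling, when models under 200 nt were left out, and without KO replicate 1 or KO replicate 3. Snai2 measured 41.3, 21.3 and 52.9 FPKM in KO and 18.3, 20.97 and 20.2 in K262Q, again with KO replicate 2 next to K262Q (adjusted p = 0.148). Zeb1 measured 18.7, 22.4 and 13.4 FPKM in KO and 7.996, 11.96 and 9.42 in K262Q (-0.82 ± 0.21, adjusted p = 0.0899). Krt18, an epithelial keratin, fell from 34.9, 34.3 and 35.7 FPKM to 26.1, 27.9 and 27.1 FPKM, 1.28-fold (-0.36 ± 0.05, adjusted p = 0.0360), with WT between at 32.6, 30.2 and 29.6 FPKM. Vim, the mesenchymal filament vimentin, was among the most abundant transcripts and overlapped (0.02, adjusted p = 0.902).

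In limma 0 members were called in aminoacyl-tRNA synthetases (21 tested, 3 higher and 4 lower at an unadjusted p under 0.05), DNA damage and repair (28, 5 and 0), NF-kB components and targets (22, 2 and 4), respiratory chain subunits (31, 9 and 0), extracellular matrix and integrins (25, 4 and 3), the Hippo pathway (22, 2 and 2) and the Bcl2 family (12, 2 and 3). The same held for cytokines and chemokines (8, 0 and 2), mitochondrially encoded genes (9, 1 and 1) and MondoA targets (6, 1 and 1). When KO replicate 2 was left out, calls appeared in all of these but the Bcl2 family: aminoacyl-tRNA synthetases had 3 higher and 1 lower, DNA damage and repair 3 and 0, NF-kB 2 and 1, the respiratory chain 2 and 0, matrix and integrins 1 and 2, Hippo 1 and 3, cytokines 0 and 1, mitochondrially encoded genes 2 and 0, and MondoA targets 1 and 1. That fit called 5.58% of all tested genes higher and 3.56% lower, and nothing is read from these few calls. At an unadjusted limma p under 0.05 the share over all tested genes was 21.95%. In the list of matrix and integrins the median of 0.02 also turned negative after upper-quartile scaling, with the stricter filter and without models under 200 nt. The same held without KO replicate 2, KO replicate 3, K262Q replicate 1 or K262Q replicate 2.

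**Figure D5:**
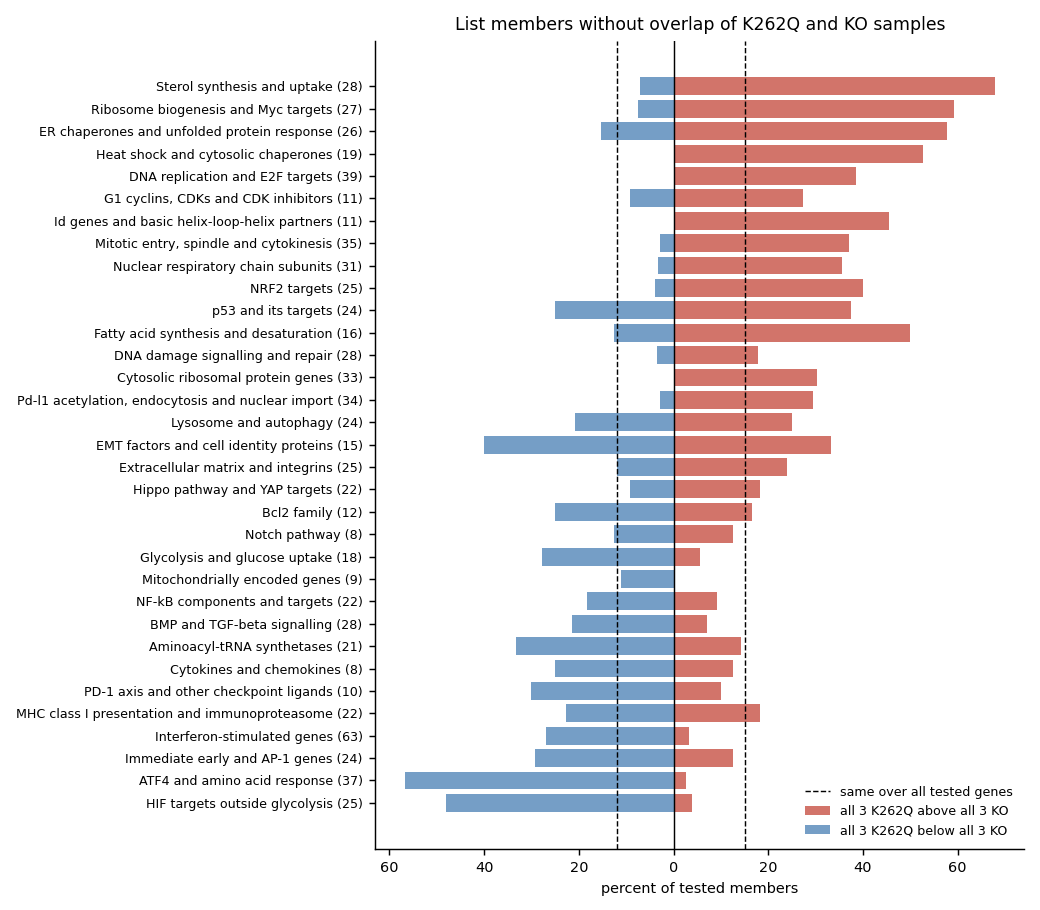
For each list with at least 8 tested genes (number in brackets), bars to the right give the percent of members with all 3 K262Q samples above all 3 KO samples and bars to the left the percent with all 3 below. Dashed lines mark 14.99% and 11.9%, the same over all tested genes. Sterol synthesis reaches 67.9% on the right, and the ATF4 list 56.8% and the HIF list 48.0% on the left.

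U90926, a gene known by a clone name, falls outside the naming rule and was picked after its values were seen. It measured 2.68, 2.24 and 1.39 FPKM in KO and 4.97, 8.69 and 9.82 in K262Q (1.48 ± 0.26, 2.80-fold, adjusted p = 0.0495).

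The labelled cell type was compared with markers of other cells. Mesenchymal genes summed to 3177 to 3541 FPKM in KO and 3263 to 3347 in K262Q, 4 of 5 above a mean of 1 FPKM. Most of that sum was Vim, at 2966 to 3337 FPKM in KO and 3083 to 3163 in K262Q, and Thy1 was listed at 0. Of 11 epithelial markers 2, Krt18 and Krt20, were above a mean of 1 FPKM, and the defining epithelial gene Cdh1 was listed at 0 in every sample. The epithelial sum was 47.6 to 50.1 FPKM in KO and 40.03 to 41.9 in K262Q, which follows Krt18, and its part in other results was not tested. Immune markers summed to 2.99 to 4.78 FPKM in KO and 3.17 to 3.77 in K262Q, mostly from Cd68, with 4 of 15 listed at 0 throughout. Endothelial markers summed to at most 0.112 FPKM in KO. Fibroblast markers summed to 4.63 to 5.25 FPKM in KO and 4.18 to 4.62 in K262Q, with Dcn and Lum listed at 0. Since genes that every cell uses are listed at 0 too, the zeros of Thy1, Cdh1, Dcn, Lum and the immune markers do not show that these genes are silent.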

How the data were processed

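Total RNA of 9 CT26 samples was sequenced, and the authors deposited 1 table of FPKM per gene and sample. Per the submitters' processing notes, STAR 2.5.4a, Cufflinks 2.2.1 and Cuffdiff were used with the mm10 genome; strand and replicate pooling are not given in the sources used here. The table's header does not name the unit: FPKM was taken from these tools and the range of the values. The deposited FPKM are length-scaled and depth-scaled, and gene models under 200 nt took 27.5% to 31.1% of their total. Overlapping, antisense and near-identical genes may share reads.

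From these values log2(FPKM + 1) was computed and fitted with limma 3.58.1 in R 4.3.3 (eBayes with trend) over all 9 samples in 3 groups, for genes whose mean reached 1 FPKM, with Benjamini-Hochberg adjustment over all tested genes and a threshold of 0.05. Tables and figures used Python 3.11.15 and matplotlib 3.10.9. The fit was tested on simulated data.

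The genes named were Cd274, Id1, Car9 and Ndrg1; the 15 largest rises and 15 largest falls among called genes without overlap, with the higher group mean at least 2 FPKM, a model of at least 200 nt and a proper symbol; and up to 4 called members of each list. Members of lists or roles of 12 genes or fewer could be given too, and other genes that did not pass were chosen after their values were seen. The comparison, the members and the gene lists were chosen with earlier results of these data known. 1 gene chosen for naming is not reported here. Of 949 list genes 947 matched a symbol in the table and 774 were tested. Alternatives were another pseudocount, no filter and a stricter filter, upper-quartile and TMM scaling, a fit of the 2 groups alone, no trend, no models under 200 nt, a replicate block, and leaving out each library. The alternative with no models under 200 nt also scaled each library to the same total of the remaining FPKM. Same-numbered KO and K262Q samples deviated from their group means with correlations of -0.020, -0.017 and -0.0086, so the numbers were not taken to pair samples.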

Additional observations from a re-analysis of the deposited data

How the results depend on the processing

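The count of 154 genes that differed between K262Q and KO became 55 without the filter on low values, 234 after upper-quartile scaling, 306 after TMM scaling, 10 in a fit of the KO and K262Q samples alone, 37 without the trend in eBayes and 387 without models under 200 nt and with the remaining values scaled to the same total. With the replicate block it was 5, where the samples share only a number; the pseudocount of 0.1 gave 159 and the stricter filter 206. Leaving out 1 library gave between 13 and 1117 genes, and 1117 was the fit without KO replicate 2. The fits without 1 library used the spread pooled over all groups. The cause of these shifts was not tested. For Cd274 the log2 difference stayed between 4.43 and 5.71 and kept its call in all 18 alternatives. Over the 45 named genes 803 values were computed, of which 360 stayed past the threshold, 443 did not and 0 changed direction. Of the medians of the gene lists, those of the EMT and cell identity list and of the extracellular matrix list changed sign after upper-quartile scaling. Depth limits low genes most: a 2000 nt transcript at 1 FPKM rests on 35.1 to 37.2 fragments.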
